A study of Mus musculus with 6 samples.

Results

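The genes studied here were the 5 of the TAM receptor system, taken by name from the 56884 genes of the count table: the ligands Gas6 and Pros1 and the receptors Axl, Tyro3 and Mertk. They were measured in 3 Dnmt3a knockout (KO) and 3 control (WT) ectopic lesions of a mouse endometriosis model, each lesion as 1 library of messenger RNA from whole tissue. KO tissue came from uteri of Dnmt3a f/f:PR-Cre/+ females and WT tissue from Dnmt3a f/f females, both given 17β-estradiol injections beforehand, so the floxed allele was common to both groups and the Cre driver was in the KO donors alone. Cre acts in cells that express the progesterone receptor, and the recipients of both groups were wild-type C57BL/6J females with 17β-estradiol pellets, so recipient cells that enter a lesion keep an intact Dnmt3a in both groups. The methods give an age of 8 weeks for donors and recipients and collection on day 21, after a fragment was sutured to the mesenteric membrane, whereas the sample labels give 4 weeks and intraperitoneal injection of fragments.

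TAM receptors are receptor tyrosine kinases that share their ligands. GAS6 binds AXL, TYRO3 and MERTK, and protein S, the product of Pros1, activates TYRO3 and MERTK. Both ligands carry an amino-terminal domain of vitamin K-dependent gamma-carboxylated glutamates that binds phosphatidylserine on dying cells, and so they bridge these cells to phagocytes, a process called efferocytosis. MERTK is typical of tissue macrophages, and AXL is known from stromal, vascular and myeloid cells, where it can restrain inflammatory signalling. The study concerns an axis of AXL, GAS6, estrogen receptor beta and DNMT3A, and the comparison here asks whether transcripts of the TAM system differed between KO and WT lesions.

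The libraries held 45370342 to 57239184 counts, and the 5 genes were counted between 682 and 51324 times per library, at which counting error alone is 3.83% to 0.441% of the value. Dnmt3a itself was at 43.9 to 52.7 CPM (counts scaled to library size by TMM) in WT and 30.3 to 36.2 CPM in KO lesions. Of the endometrial markers, Krt8, a keratin of simple epithelium, was at 287 to 618 CPM, while the gland factor Foxa2 was at 0 to 2.62 CPM. Several libraries stood apart in their content. Skeletal muscle markers summed to 31276 and 33086 CPM in WT replicates 1 and 3 and to 3.69 to 14.1 CPM in the others, and neutrophil markers summed to 9845 CPM in WT replicate 2 against 37.2 to 479 CPM elsewhere. Stroma and fibroblast markers summed to 6509 and 4417 CPM in KO replicates 1 and 2 and to 15903 CPM in KO replicate 3, beside 12977 to 14323 CPM in WT. In such bulk samples, fewer cells of a type and less RNA per cell cannot be told apart.

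All 5 genes passed the filter on low counts, and none passed the test between KO and WT lesions after adjustment. In edgeR's quasi-likelihood fit, 0 of 5 had an adjusted p under 0.05, where 0.0055% of the 18177 tested genes did, and 0 of 5 had an unadjusted p under 0.05. At that unadjusted threshold 6.55% of all genes were higher and 8.16% lower in KO, so that 44.5% of these genes were higher (62.3% with upper quartile scaling). The KO and WT values overlapped for all 5, and for 19.4% of all genes they did not. DESeq2's Wald test and limma voom also gave 0 of 5 at an adjusted p under 0.05, and voom, with quality weights for each lesion, had Axl and Tyro3 under 0.05 before adjustment (limma adjusted p = 0.109 and 0.0873), as had 30.1% of all genes. What did vary was the pattern among KO lesions: KO replicates 1 and 2 had less Axl, Gas6 and Pros1 and more Tyro3 than any WT lesion, and KO replicate 3 did not.

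**Figure D1:**
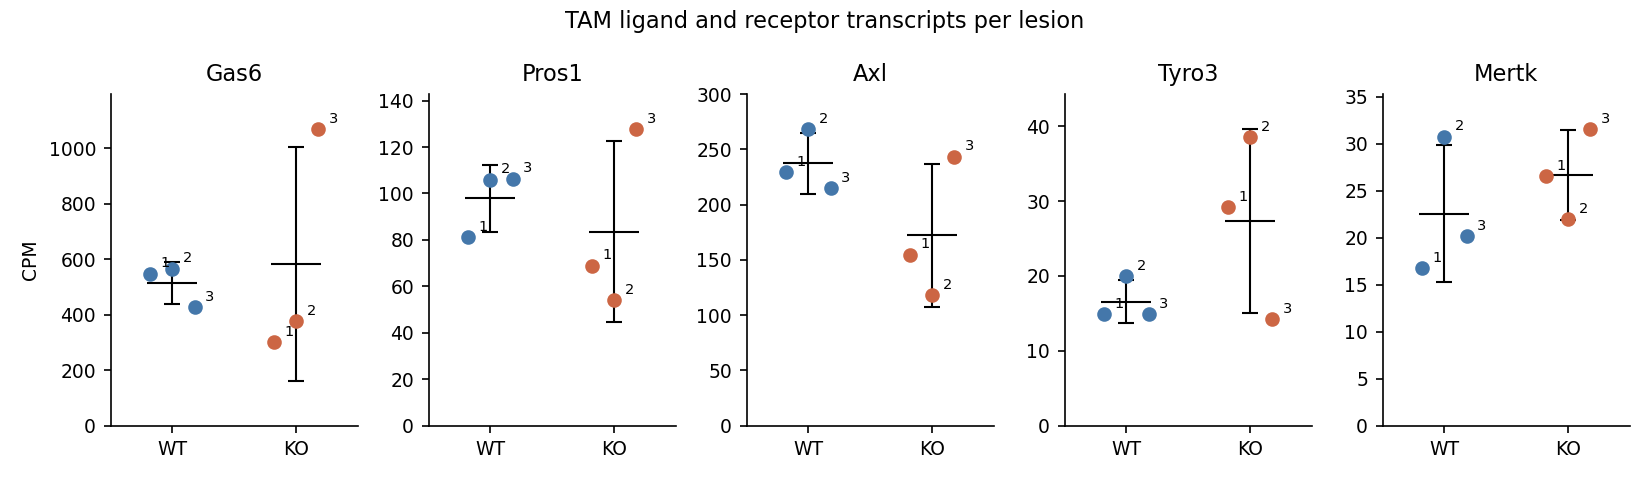
Transcript level of each TAM gene in every lesion, in CPM on the vertical axis with a separate scale for each gene; points are lesions with their replicate number, bars the mean ± SD of 3 lesions. KO replicate 3 is the highest of the 6 lesions for Gas6 (1069 CPM) and Pros1 (128 CPM) and the lowest for Tyro3 (14.2 CPM).

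Per length of transcript, Gas6 was the leading gene of the 5. Its level was 600 ± 94.6 TPM (counts scaled to exon length and library size, SD, n = 3) in WT lesions, followed by Axl at 140 ± 16.2, Pros1 at 71.1 ± 9.16, Mertk at 15.4 ± 4.85 and Tyro3 at 7.95 ± 1.34 TPM. In WT lesions the ranges of neighbours in this order did not overlap, the closest pair being Tyro3 (7.07 to 9.50 TPM) and Mertk (11.7 to 20.9 TPM). In KO lesions the order of the means was the same, at 797 ± 586, 118.5 ± 45.2, 70.9 ± 33.7, 21.3 ± 3.85 and 15.3 ± 6.99 TPM, but the ranges of Axl (83.0 to 169 TPM) and Pros1 (46.8 to 109 TPM) overlapped, as did those of Mertk (17.9 to 25.5 TPM) and Tyro3 (8.03 to 22.0 TPM). KO replicate 2 was the lesion in which Tyro3 exceeded Mertk.

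Gas6 (ENSMUSG00000031451.7), the ligand of all 3 receptors, lies on chromosome 8. The WT lesions had 548, 566 and 427 CPM of it, in the order of replicates 1, 2 and 3 used for all such values, and the KO lesions 302, 378 and 1069 CPM. KO replicates 1 and 2 thus lay below every WT lesion and KO replicate 3 above all of them. The log2 fold change was 0.18 ± 0.50 (SE, 95% interval -1.05 to 1.41, adjusted p = 0.874), an interval that spans 0.484-fold to 2.66-fold. Without KO replicate 3 it was -0.59 (unadjusted p = 0.0387, adjusted p = 0.192). Relative to the geometric mean of the 7 stroma and fibroblast markers, a scale chosen after seeing the data and given with no test, Gas6 was at 0.518, 0.527 and 0.415 for WT against 0.544, 0.980 and 0.861 for KO lesions, a mean log2 difference of 0.67. The groups did not overlap on this scale, on which 8.45% of all genes counted in every lesion were likewise higher in KO without overlap. Part of the opposite strand of Gas6 is shared with Tmem255b, which had at most 3.59 CPM, and the strand setting of the counting is not given in the sources used here.

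Pros1 (ENSMUSG00000022912.9, chromosome 16) encodes protein S, which is also a cofactor of the anticoagulant protein C. The WT lesions had 81.3, 106 and 106 CPM and the KO lesions 68.9, 54.2 and 128 CPM. Relative to WT the KO lesions lay as for Gas6, with KO replicate 3 above and KO replicates 1 and 2 below all WT lesions. Between KO replicates 1 and 2 the order was the reverse of that for Gas6. The log2 fold change was -0.23 ± 0.34 (SE, 95% interval -1.05 to 0.60, adjusted p = 0.754), and it was -0.67 without KO replicate 3 (adjusted p = 0.165) and 0.01 without KO replicate 2. Gas6 made up 86.6% to 91.5% of the summed ligand TPM in WT and 87.5% to 93.1% in KO lesions, so the ligand mix overlapped between the groups.

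The promoters of Axl and Mertk are shown because the ratio of these 2 receptors did not overlap between the groups. That ratio had an exact permutation p of 0.1, the lower limit here, and 0.5 after Benjamini-Hochberg adjustment over 5 ratios. The ratio to Mertk was likewise lower in KO without overlap for 15.9% of all other genes counted in every lesion. DNMT3A methylates cytosine in CpG, marked in capitals. The sequences are the 250 bases before the RefSeq transcription start on GRCm38.p6, read 5′ to 3′ on the gene's strand, for Axl at chr7:25788734-25788983 on the minus strand and for Mertk at chr2:128698665-128698914 on the plus strand. No methylation was measured.
Axl: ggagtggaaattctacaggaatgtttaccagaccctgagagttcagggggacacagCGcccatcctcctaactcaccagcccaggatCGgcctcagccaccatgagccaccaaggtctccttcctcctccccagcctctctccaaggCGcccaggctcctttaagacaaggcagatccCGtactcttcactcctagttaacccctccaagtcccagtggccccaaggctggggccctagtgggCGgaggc
Mertk: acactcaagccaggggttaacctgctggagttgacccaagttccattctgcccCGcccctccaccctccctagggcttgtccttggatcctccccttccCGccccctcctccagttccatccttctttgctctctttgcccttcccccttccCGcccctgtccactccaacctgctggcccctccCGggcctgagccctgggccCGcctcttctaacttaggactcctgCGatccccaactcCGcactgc
The Axl window holds 5 CpG and the Mertk window 7, near the median of 6 over 32851 RefSeq promoter windows of this length (quartiles 2 and 16). Gas6 holds 10, Pros1 15 and Tyro3 24 CpG, and 89.3% of all windows hold no more than Tyro3. The aryl hydrocarbon receptor core GCGTG, searched on both strands, was found once in the Tyro3 window and in no other member's window, and 28.2% of all windows hold it. The palindromic estrogen response element, GGTCA and TGACC set 3 bases apart, was in none of the 5 windows and in 0.0639% of all.

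Axl (ENSMUSG00000002602.17, chromosome 7), the receptor with the highest level, was at 229, 268 and 215 CPM in the WT lesions against 155, 118 and 244 CPM in the KO lesions. KO replicates 1 and 2 lay below the WT range and KO replicate 3 within it. The log2 fold change was -0.46 ± 0.29 (SE, 95% interval -1.16 to 0.23, adjusted p = 0.447), or 0.725-fold. It was negative with any lesion left out, from -0.80 without KO replicate 3 (adjusted p = 0.139) to -0.25 without KO replicate 2. Stroma and fibroblast markers, 7 of 7 with a negative fold change, had their lowest sums in the same 2 KO lesions as Axl, and their part in its level was not tested. Of these 7, 0 passed an unadjusted p of 0.05 in edgeR with a median of -0.46, against 6 without KO replicate 3 (median -1.21) and 6 in voom (median -1.13). In those 2 fits 23.9% and 30.1% of all genes passed it. Their geometric mean was used to express Axl relative to stroma in each lesion, which gave ratios of 0.217, 0.250 and 0.209 in WT and 0.279, 0.307 and 0.196 in KO lesions. On this scale the groups overlapped and the mean difference was 0.19 on the log2 scale (exact two-sided permutation test over lesions, p = 0.4), against -0.46 for Axl itself.

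Tyro3 (ENSMUSG00000027298.18, chromosome 2) was the receptor with the lowest mean TPM in both groups, and of the 3 receptors its fold change was furthest from 0. Its values were 14.9, 19.9 and 14.9 CPM for WT against 29.2, 38.6 and 14.2 CPM for KO lesions. KO replicates 1 and 2 were above every WT lesion and KO replicate 3 was below all of them. The log2 fold change was 0.72 ± 0.37 (SE, 95% interval -0.19 to 1.63, adjusted p = 0.391), or 1.65-fold, and 1.03 without KO replicate 3 (unadjusted p = 0.00531, adjusted p = 0.127). Without that lesion 4 of the 5 genes had an unadjusted p under 0.05 (Tyro3, Axl, Pros1 and Gas6), where 23.9% of all genes did. Endometrial epithelium markers summed to 2862 and 2692 CPM in KO replicates 1 and 2, to 1449 CPM in KO replicate 3 and to 1531 to 2311 CPM in WT. Of the 7 markers, 6 had a positive fold change, with 0 past an unadjusted p of 0.05 in edgeR. The number was 3 without KO replicate 3 and 2 in voom, where 23.9% and 30.1% of all genes passed. The part of these markers in the level of Tyro3 was not tested. Relative to the geometric mean of the 6 epithelial markers counted in every lesion, a scale chosen after seeing the data, Tyro3 was at 0.0729, 0.116 and 0.0562 in WT and at 0.0778, 0.107 and 0.0790 in KO lesions, and the groups overlapped.

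Mertk (ENSMUSG00000014361.6, chromosome 2), the receptor through which macrophages take up dying cells, was measured at 16.7, 30.7 and 20.1 CPM for WT against 26.6, 22.0 and 31.5 CPM for KO lesions. WT replicate 2 lay within the KO range, and the other 2 WT lesions below it. The log2 fold change was 0.24 ± 0.27 (SE, 95% interval -0.42 to 0.91, adjusted p = 0.669). It was 0.54 without WT replicate 2 (unadjusted p = 0.0475, adjusted p = 0.354). The macrophage markers had the opposite sign: 10 of 10 had a negative fold change, with a median of -0.93 (-0.40 without WT replicate 2 and -1.39 without KO replicate 3). Of these 10, 0 passed an unadjusted p of 0.05 in edgeR, against 7 in voom and 7 in edgeR without KO replicate 3. In those 2 fits 30.1% and 23.9% of all genes passed it. The markers summed to 2255 to 6372 CPM in WT and 1479 to 3272 CPM in KO lesions. The scavenger receptor Cd163 was at 5.70 and 9.38 CPM in KO replicates 1 and 2 and 47.2 CPM in KO replicate 3, against 37.6 to 82.7 CPM in WT.

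Relative to the geometric mean of the 10 macrophage markers, Mertk was at 0.124, 0.0932 and 0.141 in WT and at 0.317, 0.327 and 0.184 in KO replicates 1, 2 and 3. On this scale the KO lesions were all higher than the WT lesions. The mean difference was 1.18 on the log2 scale, or 2.27-fold (two-sided exact permutation over lesions, p = 0.1, which is the lower limit for groups of 3), and it ran from 1.02 to 1.45 with each lesion left out. Of all genes counted in every lesion, 10.4% were likewise higher in KO without overlap when set against these markers, so the separation is not particular to Mertk.

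**Figure D2:**
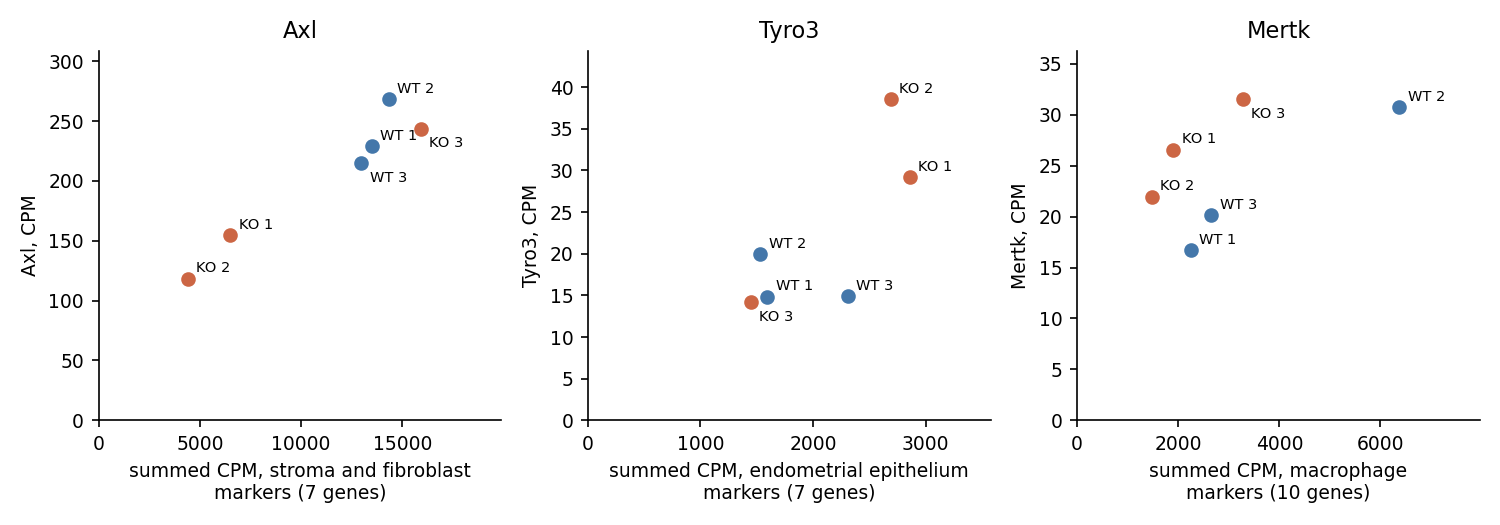
Level of Axl, Tyro3 and Mertk (vertical axes, CPM) against the summed CPM of the stroma and fibroblast, endometrial epithelium and macrophage markers (horizontal axes), 1 point per lesion. KO 1 and KO 2 have the lowest stroma sums and the lowest Axl, and the highest epithelial sums and the highest Tyro3; for Mertk, WT 2 has the highest macrophage sum (6372 CPM) at a level close to that of KO 3.

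Within each lesion, the balance among the receptors was then compared, which does not depend on the scaling of the library. Per length, Axl made up 83.8% to 87.9% of the 3 receptors in WT lesions and 73.9%, 67.6% and 83.5% in KO replicates 1, 2 and 3, with no overlap. Mertk made up 7.45% to 11.1% in WT and 12.6% to 14.7% in KO lesions, with no overlap. The shares of the 3 receptors are parts of 1 sum, so these are not 2 separate results. By CPM, the groups did not overlap for 19.4% of all genes. Tyro3 made up 4.63% to 5.06% in WT and 11.3%, 17.9% and 3.96% in KO lesions, where KO replicate 3 was below the WT range.

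The ratio of Axl to Mertk counts was 13.7, 8.73 and 10.7 in WT and 5.82, 5.39 and 7.72 in KO lesions. All 3 KO lesions were below all 3 WT lesions, and the mean log2 ratio was lower by a difference of -0.80, or 1.74-fold (two-sided exact permutation over lesions, p = 0.1, again the lower limit, and 0.5 after Benjamini-Hochberg adjustment over the 5 ratios compared). The ratio to Mertk was lower in KO without overlap for 15.9% of all other genes counted in every lesion. Leaving out single lesions moved the difference to between -0.95 and -0.63. For the other 4 ratios the groups overlapped: Axl to Tyro3 was 13.5 to 15.4 in WT and 5.30, 3.07 and 17.1 in KO lesions (exact p = 0.4), Mertk to Tyro3 was 1.13 to 1.54 and 0.910, 0.570 and 2.22 (exact p = 0.6), Gas6 to Pros1 was 4.01 to 6.74 and 4.38, 6.98 and 8.37 (exact p = 0.4), and Gas6 to Axl was 1.99 to 2.39 and 1.95, 3.19 and 4.39 (exact p = 0.4).

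**Figure D3:**
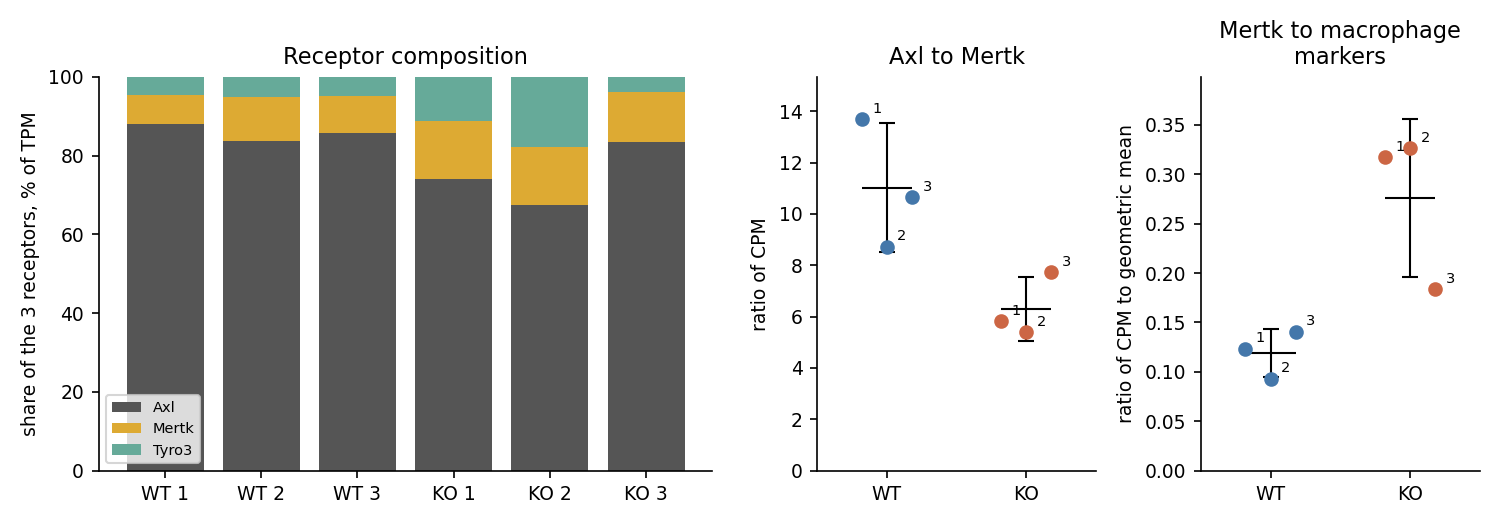
Left, share of Axl, Mertk and Tyro3 in the summed TPM of the 3 receptors for each lesion, in percent; middle, ratio of Axl to Mertk CPM; right, ratio of Mertk CPM to the geometric mean of 10 macrophage markers, with points for lesions and mean ± SD of 3. The Axl to Mertk ratio is 8.73 or more in WT and 7.72 or less in KO lesions.

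**Figure D4:**
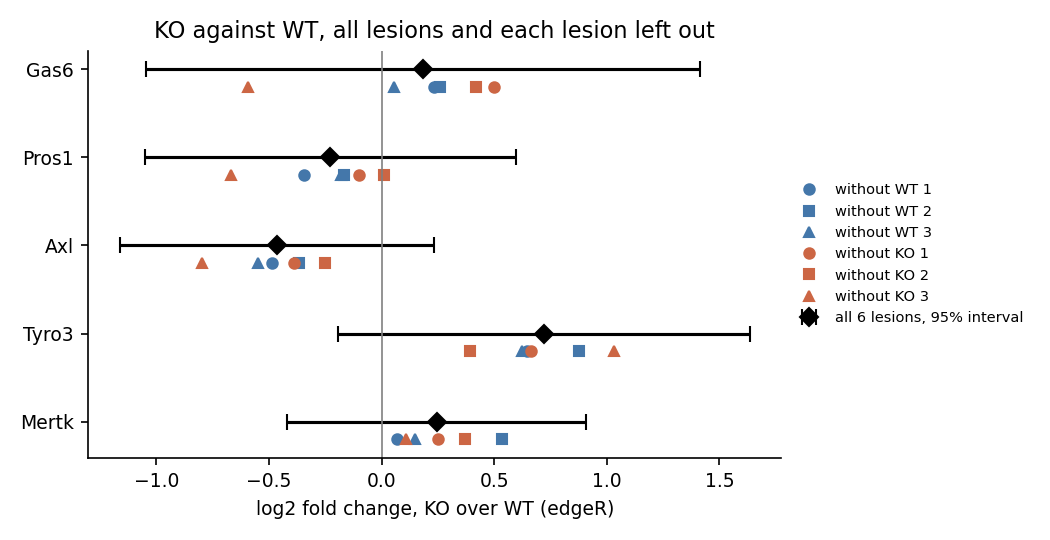
Log2 fold change of KO over WT lesions from edgeR for each TAM gene, on the horizontal axis; diamonds use all 6 lesions with their 95% interval, and smaller symbols leave out 1 lesion. All 5 intervals include 0, and leaving out KO replicate 3 moves Gas6 from 0.18 to -0.59.

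The genes whose level over the 6 lesions was most like that of each TAM gene were listed by Pearson correlation of log2 CPM among 15045 genes, as a description over 6 lesions that share the same libraries. For Gas6 these were Cers4 (r = 0.996), Scube3, Ankib1, Sptan1 and Prr16 (0.989), and each had its highest level in KO replicate 3. For Pros1 they were Ppbp (r = 0.994), a platelet chemokine, Pear1, Colec12, Pcdhb5 and Tnks1bp1 (0.987). For Axl they were Calhm2 (r = 0.996), Akr1b8, Ecscr, Ddah1 and AC154707.1 (0.995), all with their lowest level in KO replicate 2. For Tyro3 they were H13 (r = 0.987), Pigh, Rab11fip4, Ssr4 and Gstt3 (0.984), and Rab11fip4 had 7.69 to 10.3 CPM for WT against 28.3, 34.5 and 7.04 CPM in KO replicates 1, 2 and 3. For Mertk they were 9930012K11Rik (r = 0.997), Pex6, Mid1, Ddt and Mcoln1 (0.967), the last a calcium channel of lysosomes.

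The other genes that recognise phosphatidylserine or carry out engulfment were counted next. Of the 28 tested genes of this list, 6 (21.4%, where 8.16% of all genes were) were lower and 2 (7.14%, against 6.55%) were higher at an unadjusted p under 0.05, and 0 had an adjusted p under 0.05 in edgeR. DESeq2 gave 2, Havcr2 and Timd4. The median log2 fold change of the list was -0.28 against 0.01 over all genes, and it was -0.03 with WT replicate 2 and -0.75 with KO replicate 3 left out. Macrophage markers, given above with Mertk, were also lower in median, and their part in these genes was not tested. The number of lower genes was 3, 4 and 10 of 29 tested when KO replicate 1, 2 or 3 was left out in turn. Of all genes, 703 of 19002, 798 of 18925 and 2366 of 19048 were lower in these fits.

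Among the receptors of this list, Timd4, the phosphatidylserine receptor TIM-4 of resident macrophages, was at 2.48, 17.3 and 2.52 CPM for WT against 0.316, 0.715 and 0.708 CPM for KO lesions. Its log2 fold change was -3.68 ± 0.96 (SE, adjusted p = 0.321), and -2.10 without WT replicate 2. Havcr2, the immune receptor TIM-3, had 6.87, 9.30 and 5.28 CPM for WT against 2.89, 2.74 and 3.73 CPM for KO lesions (log2 fold change -1.19 ± 0.29, SE, adjusted p = 0.321). Itgav, the alpha subunit of the integrins that bind MFGE8 on dying cells, had 335, 380 and 489 CPM for WT against 212, 258 and 270 CPM for KO lesions (-0.70 ± 0.20, SE, adjusted p = 0.321). The "do not eat me" ligand Cd47 (-0.65 ± 0.21), the engulfment adaptor Elmo1 (-0.92 ± 0.27) and the engulfment receptor Megf10 (-2.64 ± 1.01) were the other 3 lower genes, and Megf10 was at -1.31 without WT replicate 1. In all 6 lower genes the groups did not overlap, as in 19.4% of all genes. These 6 were chosen by their p, so the separation adds no support.

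The 2 higher genes were Edil3, a bridging protein that binds phosphatidylserine and integrins, at 0.470, 0.450 and 0.683 CPM for WT against 1.65, 1.23 and 0.959 CPM for KO lesions (log2 fold change 1.26 ± 0.36, SE, adjusted p = 0.321), and Dock1, the partner of ELMO1 in activating RAC1, at 78.7 to 88.5 CPM in WT and 97.0 to 147 CPM in KO lesions (0.63 ± 0.19, SE, adjusted p = 0.321). Edil3, Timd4, Havcr2 and Itgav had an unadjusted p under 0.05 with any lesion left out, while Cd47, Elmo1, Megf10 and Dock1 did not. The bridging protein Mfge8 was at 128 to 239 CPM in WT and 147 to 278 CPM in KO lesions (0.19 ± 0.32, SE, adjusted p = 0.786).

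**Figure D5:**
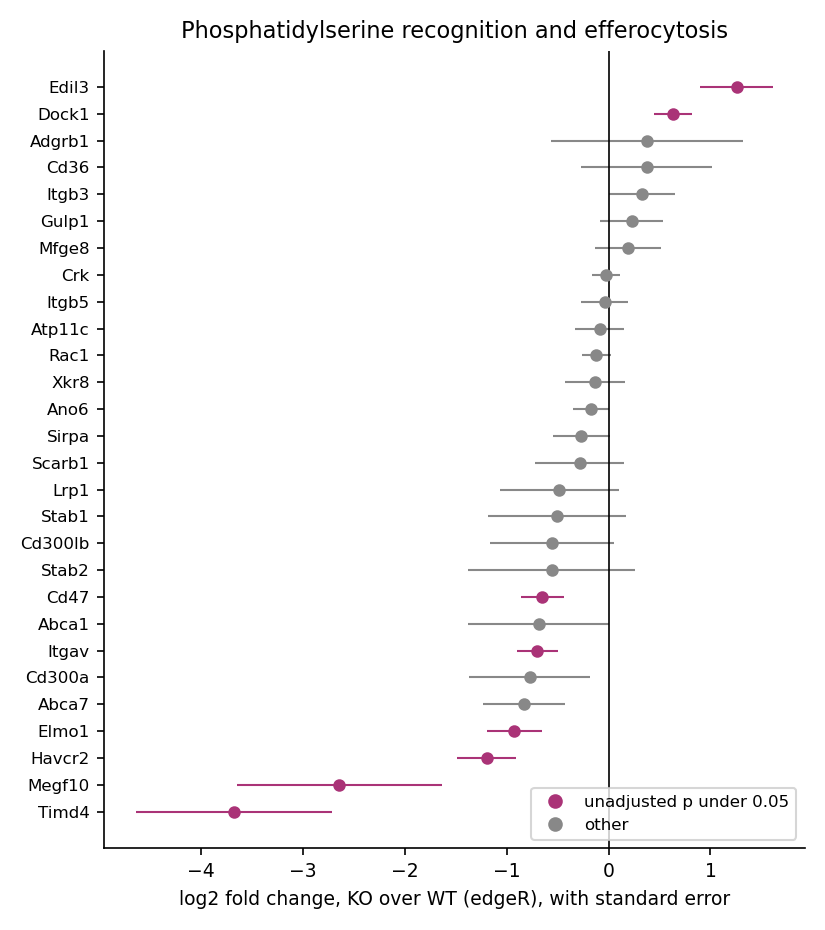
Log2 fold change (KO over WT, edgeR) with its standard error for the 28 tested genes of the phosphatidylserine recognition and efferocytosis list, ordered by value; coloured points have an unadjusted p under 0.05. The values run from -3.68 for Timd4 to 1.26 for Edil3.

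Among genes that carry, limit or end TAM signalling, 13 of 20 had a negative fold change, with a median of -0.19. Of the 20, 2 were lower and 2 higher at an unadjusted p under 0.05 (10% each way), where 8.16% of all genes were lower and 6.55% higher. None passed an adjusted p under 0.05 in edgeR and 1, Socs3, did in DESeq2. The split was 1 higher and 5 lower both in voom and without KO replicate 3, and 0 in either direction without KO replicate 1. Of all genes, 30.1% passed that threshold in voom and 23.9% without KO replicate 3, in either direction. Socs3, a feedback inhibitor of cytokine signalling that TAM receptors can induce, was at 75.05, 383 and 48.4 CPM for WT against 27.3, 20.9 and 44.5 CPM for KO lesions (log2 fold change -2.45 ± 0.85, SE, adjusted p = 0.328, and -0.997 without WT replicate 2). The adaptor Nck2 (0.64 ± 0.24) and the transcription factor Twist2 (0.73 ± 0.28) were the higher genes. None of these 3 named genes had an unadjusted p under 0.05 with each lesion left out: Socs3 missed it without KO replicate 1 or 2, and Nck2 and Twist2 in 5 of the 6 fits. The sheddases Adam10 (249 to 334 CPM over all lesions) and Adam17 (127 to 192 CPM), which cleave AXL and MERTK from the cell surface, had log2 fold changes of 0.13 ± 0.17 and -0.22 ± 0.17 (SE).

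The list of the vitamin K cycle, which the ligands need for binding to phosphatidylserine, and of gamma-carboxylated proteins had 0 of 13 tested genes past an unadjusted p of 0.05 in edgeR, 1 of 16 in DESeq2 and 2 of 13 in limma voom. Of all genes, 6.55% were higher and 8.16% lower in edgeR at that threshold. In either direction, 1486 higher and 2307 lower of 29812 genes passed it in DESeq2 and 30.1% in voom. The carboxylase Ggcx was at 24.6 to 26.9 CPM in WT and 22.6 to 37.6 CPM in KO lesions, and the epoxide reductase Vkorc1 at 4.40 to 5.74 and 3.85 to 5.25 CPM. Mgp, another gamma-carboxylated protein, was at 340 to 451 CPM in WT and at 170, 157 and 381 CPM in KO replicates 1, 2 and 3, again with KO replicate 3 in the WT range. In the related MET family, Met was at 85.9 to 106 CPM in WT and 92.3 to 125 CPM in KO lesions. Of this family 0 of 4 tested genes had an unadjusted p under 0.05 in edgeR, 1 of 5 in DESeq2 and 1 of 4 in voom, where 30.1% of all genes had.

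Of the estrogen receptor and DNA methyltransferase genes of the study's axis, of which 6 of 7 were tested, Esr2, which encodes estrogen receptor beta, did not pass the filter, with 0.0854 to 0.113 CPM for WT against 0.140, 3.22 and 0.208 CPM for KO lesions, and its change could not be judged at this depth. Esr1, which encodes estrogen receptor alpha, was at 191, 93.2 and 200 CPM for WT against 387, 445 and 226 CPM for KO lesions (log2 fold change 1.13 ± 0.39, SE, unadjusted p = 0.0265, adjusted p = 0.328), and missed an unadjusted p of 0.05 without KO replicate 1 or 2. Dnmt3a was the other gene of this list past that threshold (-0.57 ± 0.14, SE, adjusted p = 0.321 in edgeR and 0.0438 in DESeq2), and it stayed past it with any lesion left out. Of all genes, 6.55% were higher and 8.16% lower at that threshold. Ncoa1, which encodes the coactivator SRC-1, was at 42.3 to 49.1 CPM in WT and 42.6 to 49.7 CPM in KO lesions (-0.02 ± 0.12, SE).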

How the data were processed

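RNA of the 3 control and 3 Dnmt3a knockout lesions was sequenced with a stranded mRNA kit. The authors deposited raw counts of reads per gene for each library, made after trimming and mapping; the submitters' processing notes name Trimmomatic, featureCounts and DESeq2 and the build GRCm39, while the methods name GRCm38, and the aligner and strand setting are not given in the sources used here. Of 56884 gene identifiers, 51948 were found in GENCODE M21 (GRCm38) once versions were ignored, 35 of them with the same version, so symbols and exon lengths (for TPM) come from a release other than the one counted, and coordinates are printed only for the promoter windows, which come from RefSeq on GRCm38.p6. Identifiers without a match held 3.04% to 3.56% of the counts.

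Counts were analysed in edgeR 4.0.16 (R 4.3.3) with filterByExpr (18177 genes), TMM scaling and a quasi-likelihood test of genotype alone, with Benjamini-Hochberg adjustment over all tested genes. Standard errors are the log2 fold change over the square root of F, and 95% intervals use the fit's degrees of freedom. Ratios within a lesion were compared by exact permutation tests. The members and lists were chosen with earlier results of these data known: 5 pathway lists and 19 marker lists, with the pathway genes of an unadjusted p under 0.05 named along with up to 4 others in list order, and the 5 genes of at least 1 CPM most correlated with each member (log2 CPM, prior count 2). Alternatives were other scalings and filters, DESeq2 1.42.0, limma 3.58.1 voom, the replicate number as a block and each lesion left out. A gene that the rule names is not reported here. Adam10, Adam17, Mgp and the single marker genes lie outside this rule and were chosen after their values were seen. The fit was tested on simulated data. Nothing in the labels says whether lesions of a group came from separate donors, and the methods give 1 donor per lesion.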

Additional observations from a re-analysis of the deposited data

How the results depend on the processing

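No TAM gene crossed an adjusted p of 0.05 in any of the 13 alternatives. Axl stayed negative and Tyro3 and Mertk positive in all 13, with log2 fold changes of -0.80 to -0.25, 0.39 to 1.03 and 0.07 to 0.54, and adjusted p-values of 0.109 to 0.782, 0.0873 to 0.751 and 0.214 to 0.936. The sign of Gas6 turned to -0.35 with limma voom, to -0.063 with the replicate number as a block (replicate block) and to -0.59 without KO replicate 3, and ran from -0.59 to 0.50 with each lesion left out. The sign of Pros1 turned to 0.0096 without KO replicate 2 (range -0.67 to 0.0096) and to 0.40 relative to the stroma and fibroblast markers, a scale chosen after seeing the data; the cause was not tested. With each lesion left out, the log2 differences ran from 0.08 to 0.54 for Gas6 to Pros1, -1.84 to -0.60 for Axl to Tyro3, -0.88 to 0.10 for Mertk to Tyro3, 0.21 to 0.80 for Gas6 to Axl and 0.06 to 0.38 for Axl relative to stroma. With log2(CPM + 1), or summed markers, the ratios moved by less than 1 SD between lesions.

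Lesions with the same replicate number did not deviate together from their group means (r = 0.03, -0.15 and -0.20 across genes), so this check showed no pairing by number. Deviations from a mean of 3 lesions are tied to each other, so it cannot exclude pairing or a shared batch. The block gave 1400 genes at an unadjusted p under 0.05 against 2674 without it. Over all genes, an adjusted p under 0.05 was reached by 1 gene in edgeR, 12 in voom, 398 in edgeR without WT replicate 2 and 1083 in DESeq2; the unadjusted number was 5478 in voom, and 1379, 1297 and 4551 with KO replicate 1, 2 or 3 left out in turn. With 3 lesions a group, an exact test of a single value cannot go below 0.1.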

Other observations

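Relative to the geometric mean of the 7 stroma and fibroblast markers, a scale chosen after seeing the data, Pros1 was at 0.0769 to 0.103 in WT and 0.103 to 0.140 in KO lesions. Smooth muscle markers summed to 1053 to 4843 CPM in WT and 2181 to 3816 CPM in KO lesions. Des, the 1 of 6 with a negative fold change (-2.16), gave 2675 and 1357 CPM of these sums in WT replicates 1 and 3, the lesions high in skeletal muscle markers. It was at 106 CPM in WT replicate 2 and 195 to 371 CPM in KO lesions. Myh11, Cnn1 and Actg2 were higher at an unadjusted p under 0.05 in edgeR, where 6.55% of all genes were. DESeq2 had 3 higher and 1 lower before adjustment and 3 after it. The part of the smooth muscle markers in the level of Gas6 was not tested. Other lists were adipocytes, which summed to 3280 CPM in KO replicate 3 and 391 to 2269 CPM in the other lesions, and endothelium, at 708 CPM in KO replicate 3, 356 and 252 CPM in KO replicates 1 and 2 and 549 to 669 CPM in WT. Platelet and megakaryocyte markers, with Gp1bb at 0 in every lesion, summed to 33.2 CPM in KO replicate 3, 8.96 and 9.26 CPM in KO replicates 1 and 2 and 22.1 to 39.7 CPM in WT.

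Lists of lymphocytes were lower in KO lesions for 5 of 6 T cell genes and 3 of 4 B cell genes at an unadjusted p under 0.05 in edgeR, where 8.16% of all genes were, with 0 past an adjusted p under 0.05 (1 T cell and 2 B cell genes in DESeq2). The T cell count was 1 of 6 without WT replicate 2, KO replicate 1 or KO replicate 2, and the B cell count 1 of 4 without KO replicate 1 and 2 of 4 without WT replicate 2, KO replicate 2 or KO replicate 3. T cell markers summed to 28.1, 80.3 and 30.1 CPM for WT against 7.35, 5.01 and 22.1 CPM for KO lesions, and B cell markers to 69.3 CPM for WT replicate 2 and 6.71 to 13.5 CPM for all others. Against the same 8.16%, 3 of 7 neutrophil genes were lower, and 0 of 7 without WT replicate 2, KO replicate 1 or KO replicate 2 or with the replicate block. All 7 tested skeletal muscle genes were lower, with 0 past an adjusted p under 0.05 in edgeR, 8 in edgeR without WT replicate 2 and 8 in DESeq2. Their high sums were in WT replicates 1 and 3 only (31276 and 33086 CPM). WT replicate 2, at 3.69 CPM, was below the KO lesions, at 6.36 to 14.1 CPM. The dendritic cell list (Xcr1, 1 of 5), the Schwann cell and nerve list (Sox10, 1 of 5) and the pancreatic acinar list (Cela1, 1 tested, with a sum of 4659 CPM in WT replicate 3 and at most 16.0 CPM elsewhere) each had 1 lower gene in the fit of all lesions, and for each of them the count was 0 with some single lesions left out (WT replicate 3 or any KO replicate for Cela1, WT replicate 2 or 3 or KO replicate 2 for the dendritic list, KO replicate 1 or 2 for the Schwann cell list). The NK cell, mesothelium, intestinal epithelium, hepatocyte and erythroid lists had 0 genes past that unadjusted threshold in edgeR with all lesions. Without KO replicate 3, 4 of 4 erythroid genes passed it, where 23.9% of all genes did. Also past it were 1 intestinal gene without KO replicate 2, 1 hepatocyte gene in DESeq2 and 1 hepatocyte gene without WT replicate 1. Of these lists, the NK, intestinal and hepatocyte markers summed to no more than 5.96 CPM in any lesion.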
